A study of Drosophila melanogaster with 2 samples.

Results

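The 39 genes described here form the epidermal growth factor receptor (EGFR) pathway of the fly, the Ras and MAP kinase cascade below it, and several other receptor tyrosine kinases with their ligands. They were taken from a list of names, out of 13945 protein-coding genes on the 6 chromosome arms, and all 39 were found in the annotation (Gap1 as RasGAP1). Chromatin immunoprecipitation with sequencing (ChIP-seq) was performed on whole embryos of a transgenic line that stably expressed Six4, a homeodomain transcription factor, with GFP at its C terminus. Precipitation was with an antibody to GFP according to the sample description, although the antibody field names Six4. Embryos of both sexes were pooled at 0 to 16 hours of age, and 2 samples, biological replicates 1 and 3, made up 1 group. With 1 group and no control library analysed here, no difference between conditions was tested, and the counts below are descriptions.

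In this pathway a ligand such as Spitz is cut from its membrane anchor by Rhomboid proteases, binds EGFR, and activates Ras, Raf and the MAP kinase Rolled. The kinase then acts on nuclear ETS factors and on the repressor Capicua, and several inhibitors that the pathway induces, Argos and Sprouty among them, restrain it. In the fly embryo the pathway patterns the ventral ectoderm, the trachea and the founder cells of muscle and heart, while Six4 is known for its role in mesoderm, muscle and gonad.

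Windows at 6 strong peaks of the listed genes, 1 for each gene and all outside UTRs, are shown first because the results return to these peaks. They are not the 6 highest in strict order, since the strongest peak of edl (signal 410) ranks above that of S (357) and its window is not printed here. Each window reaches 100 bases to either side of a summit, read on the plus strand of dm6 (RefSeq, Release 6), and capitals mark matches to 8 words that were searched on both strands. The windows are those of Raf (chrX:2297635-2297835), RapGAP1 (chr2L:7530619-7530819), aos (chr3L:16480455-16480655), Gap1 (chr3L:9855819-9856019), gro (chr3R:26042387-26042587) and S (chr2L:1075841-1076041).
Raf: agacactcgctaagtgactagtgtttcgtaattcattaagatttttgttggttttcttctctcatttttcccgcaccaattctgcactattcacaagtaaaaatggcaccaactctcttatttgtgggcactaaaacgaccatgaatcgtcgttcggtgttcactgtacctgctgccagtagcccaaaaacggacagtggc
RapGAP1: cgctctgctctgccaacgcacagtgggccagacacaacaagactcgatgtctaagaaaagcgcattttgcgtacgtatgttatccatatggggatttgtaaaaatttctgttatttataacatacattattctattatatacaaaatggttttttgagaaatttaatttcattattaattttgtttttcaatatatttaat
aos: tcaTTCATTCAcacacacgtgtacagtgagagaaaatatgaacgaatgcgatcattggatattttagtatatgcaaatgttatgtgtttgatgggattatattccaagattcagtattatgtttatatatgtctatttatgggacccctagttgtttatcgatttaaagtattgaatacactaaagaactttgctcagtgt
Gap1: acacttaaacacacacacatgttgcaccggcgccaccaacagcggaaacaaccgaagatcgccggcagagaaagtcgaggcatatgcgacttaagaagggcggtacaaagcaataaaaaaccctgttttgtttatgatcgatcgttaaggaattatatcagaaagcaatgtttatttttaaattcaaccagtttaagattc
gro: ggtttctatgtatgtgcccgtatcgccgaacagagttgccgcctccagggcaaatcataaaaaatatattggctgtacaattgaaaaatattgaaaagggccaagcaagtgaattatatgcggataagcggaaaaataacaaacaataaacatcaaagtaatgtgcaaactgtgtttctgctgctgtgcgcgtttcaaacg
S: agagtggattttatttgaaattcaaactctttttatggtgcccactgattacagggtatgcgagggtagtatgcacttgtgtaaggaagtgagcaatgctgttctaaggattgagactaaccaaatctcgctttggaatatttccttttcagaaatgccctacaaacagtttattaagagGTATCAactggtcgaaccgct
The words were TGATAC (core of the site bound by Six4-type proteins), TCAGGTTTC (the MEF3 site of the same family), TATCGATA, GGTCACACT, TAATTA (homeodomains), CCGGAA (ETS factors), and TGAATGAA and TCAATGAA (Capicua). TATCGATA is the DNA replication-related element and GGTCACACT the site of the promoter factor M1BP. In these 6 windows the search found TGAATGAA in that of aos and TGATAC in that of S. The G and C content ran from 30.3% in the RapGAP1 window to 42.8% in that of Raf.

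TGATAC lay within 100 bp of 8 of the 77 summits in the windows of the listed genes (10.4%). The share was 6.49% over all 3974 peaks of the thresholded set. In windows 1000 bp to either side it was 7.79% for the 77 summits and 4.34% for all peaks, so the flanks differed as well. The 8 sites are given below from the strongest peak to the weakest, as 30 bases on the strand where the word reads TGATAC, in capitals.
S chr2L:1076009-1076038 (- strand): ggttcgaccagtTGATACctcttaataaac
RapGAP1 chr2L:7576873-7576902 (+ strand): taaaacatgtgaTGATACagatatgcatta
Gap1 chr3L:9856028-9856057 (- strand): ataactagctatTGATACatggttattgga
Gap1 chr3L:9856611-9856640 (- strand): taacaaatattaTGATACactttaaaagca
Raf chrX:2329478-2329507 (- strand): taaatgttccatTGATACgctttcattaaa
cic chr3R:20292622-20292651 (- strand): acacaagagaaaTGATACttggttggaaat
aop chr2L:2179487-2179516 (+ strand): aacgattcatgcTGATACcagaagcatggg
Raf chrX:2301392-2301421 (+ strand): cccatttccctgTGATACattcagcgaggc
Read on the plus strand, the word in S began 80 bp from a summit of signal 357, and that in RapGAP1 30 bp from a summit of signal 255. Both upstream peaks of Gap1 that held the word ranked lower, at 877 and 1019. In Raf the word began 4 bp before the summit of a peak with signal 93.7 and covered that summit. This peak ranked 8968 in replicate 1 and 2004 in replicate 3. The MEF3 word was at none of the 77 summits and at 0.0503% of all peaks. TATCGATA was found once, at Ras85D (1.30%, against 3.40% of all peaks), and GGTCACACT once, at S (1.30%, against 1.33%). TCAATGAA was found once, at edl (1.30%, against 1.11%). CCGGAA was at 2 summits (2.60%, against 3.50% of all peaks), and TAATTA, the most frequent of the 8 words there, at 10 (13.0%, against 18.4%). TGAATGAA was at 3 summits, those of aos, Raf and stet (3.90%, against 1.69% of all peaks). Its share in the flanking windows was 5.19% for the listed genes and 1.55% for all peaks. Windows at the 77 summits held 36.8% G and C, and those of all peaks 35.0%.

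The deposited peaks are those that passed an irreproducible discovery rate (IDR) procedure across the replicates, 3974 in all. A gene is said here to have a summit when the highest point of a peak lay in its body or within 2 kb of either end. Signal is the value of the authors' peak caller for a peak, from 81.1 for the weakest to 1741 for the strongest, and rank 1 is the strongest. The replicate lists, with background entries, held 30000 entries (replicate 1) and 28237 (replicate 3). Their signals are on scales of their own, so ranks are used to set them side by side, and sequencing depth is unknown. Each replicate value or rank below is that of the overlapping entry with the nearest summit.

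Of the 39 genes, 25 had a summit (64.1%), against 31.2% of all protein-coding genes. They held 77 peaks, or 68 separate regions once overlapping peaks were joined. Window length bears on this count. Among all genes the share with a summit was 17.0% for windows of 4.17 to 5.18 kb, 26.9% up to 6.17 kb, 33.5% up to 9.00 kb and 47.4% for longer ones. Of the listed genes, 6 fell in the class of 6.17 to 9.00 kb and 2 of these had a summit (33.3%). The other 33 had longer windows, with a median of 20.2 kb against 15.4 kb for all genes of that class, and 23 of them had a summit (69.7%). Per length, the listed windows held 8.40 peaks per 100 kb, and the windows of all protein-coding genes 3.47.

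**Figure D1:**
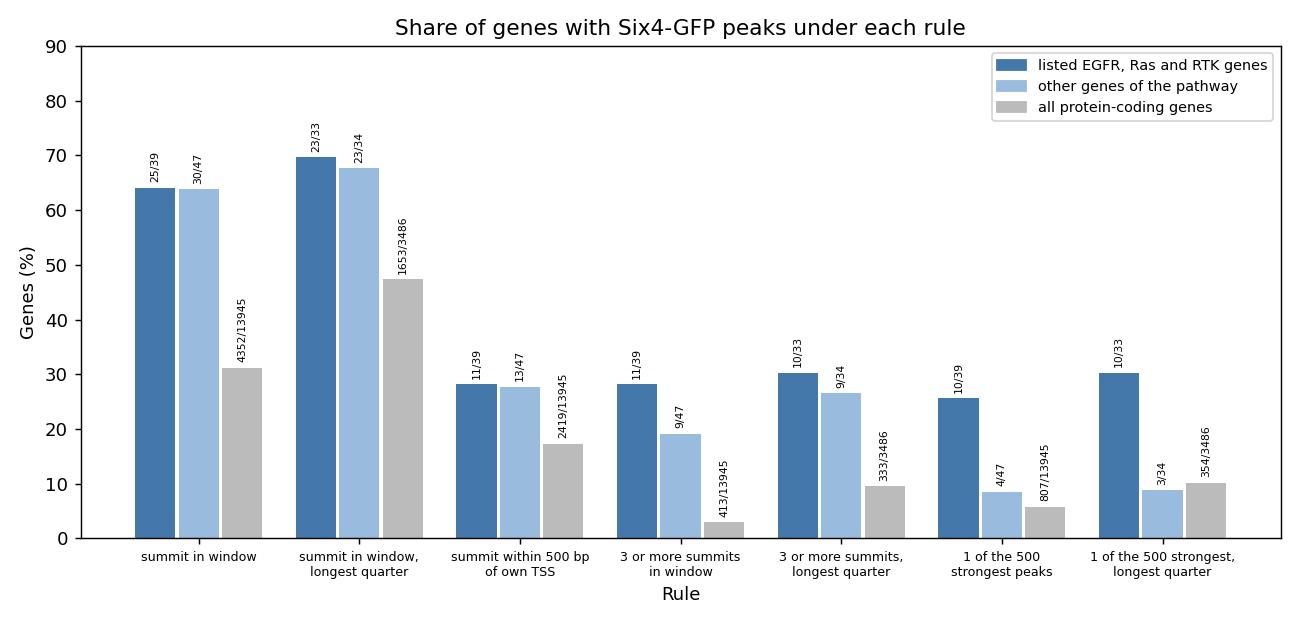
Bars give the percentage of genes that met each rule named on the x axis, for the 39 listed genes, 47 other genes of these pathways and all protein-coding genes, with counts above the bars; the class of longest windows is that over 9.00 kb. The listed genes reached 64.1% for a summit in the window and 25.6% for a peak among the 500 strongest, where all genes stood at 31.2% and 5.79%.

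Windows with strong peaks and with repeated peaks were counted as well. In 10 of the 39 windows (25.6%) lay 1 or more of the 500 strongest peaks, against 5.79% of all genes. All 10 had windows over 9.00 kb, 10 of 33 in that class (30.3%) against 10.2% of all genes in it. Windows with 3 or more summits numbered 11 (28.2%), against 2.96% of all genes, and 10 of the 33 in the long class (30.3%), against 9.55%. Overlapping peaks were counted apart here, and spi, Krn and Gap1 each had 3 peaks in only 2 separate regions. Overlap with another peak was also more frequent among the listed peaks (23.4%) than among all peaks (10.4%). A share per gene grows with the number of peaks in a window. Per peak, 14 of the 77 (18.2%) were among the 500 strongest, against 12.6% of all peaks, and 42 (54.5%) were among the 1987 strongest, against 50% by construction. The median signal was 137 for the 77 and 128 for all peaks. The limits of 500 peaks and of windows over 9.00 kb were set after values had been seen. A summit within 500 bp of an own transcription start site (TSS) was found at 11 of the 39 genes (28.2%), against 17.3% of all genes. Shares under this rule, here and below, were not split by window length or by number of starts. RapGAP1 has 5 starts and gro has 4. Of the 77 summits, 23 (29.9%) lay within 500 bp of any protein-coding TSS, against 46.8% of all peaks, and 32 (41.6%) were over 2000 bp away, against 33.4%. In relation to the listed genes themselves, 43 summits were intronic, 19 at promoters, 11 further upstream and 4 in 5′ UTRs.

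**Figure D2:**
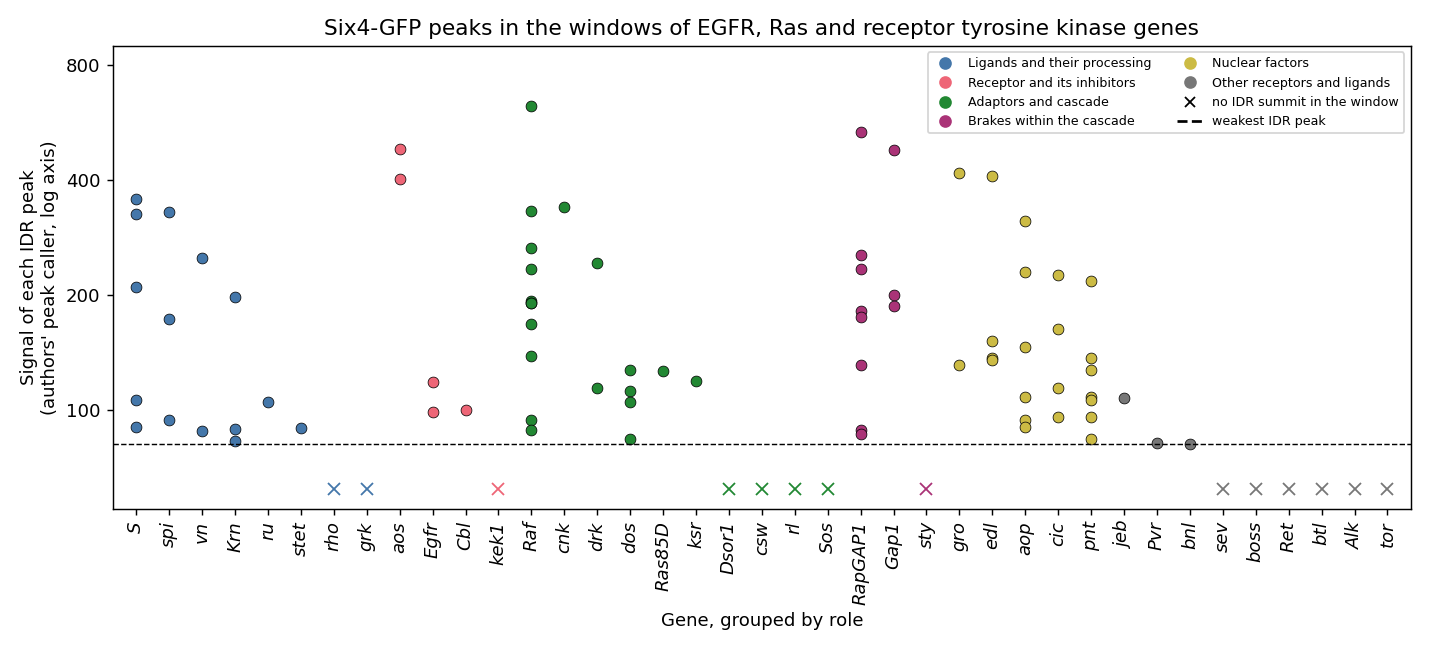
Each point is 1 peak in the window of the gene on the x axis, with its signal on a log y axis; colours give the role, crosses mark the 14 genes with no summit, and the dashed line is the weakest peak of the set (81.1). Nuclear factors all have points, whereas the receptors and ligands at the right have at most 1 each, none above 107.

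Ligands and the proteins that release them had summits in 6 of 8 cases (75.0%, against 31.2% of all genes), with 15 peaks. Of the 6 with windows over 9.00 kb, 5 had one (83.3%), against 47.4% of all genes in that class. The gene S encodes Star, which carries Spitz out of the endoplasmic reticulum. It held 5 peaks on 2L, and the strongest (1075862 to 1076065, signal 357, rank 240) lay in an intron 1870 bp downstream of a TSS. That peak had a signal of 151 in replicate 1 and 201 in replicate 3, at ranks 265 and 255. A further intronic peak of S (326, rank 303) stood higher in replicate 1 (signal 204, rank 115) than in replicate 3 (123, rank 746). The peak of signal 210 ranked 875 and 811, and that of 106 ranked 2952 and 2893. The weakest (90.1) lay 35 bp upstream of the TSS and ranked 2819 and 4207. In S the peaks therefore ran from the promoter to 14.7 kb into the gene.

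The gene spi encodes Spitz, the main activating ligand of the embryo. It had 3 promoter peaks on 2L at 2 of its 3 starts, and the strongest (19575622 to 19575837, signal 330, rank 296) lay 151 bp upstream of a TSS. Its signals were 126 and 204 in replicates 1 and 3, at ranks 436 and 245. The next (173) overlapped it and ranked 1413 and 1129, and the third (93.9) lay 72 bp upstream of the most distal start and ranked 4114 and 2326. Krn, a ligand related to spi, had 3 peaks around its TSS. The strongest (198, rank 908) was 96 bp upstream and ranked 1052 and 884 in replicates 1 and 3. An intronic peak of 89.1 ranked 3172 and 3891. The weakest (82.8), 38 bp upstream of the neighbour CG7484, ranked 1532 and 5683. vn, a neuregulin-like ligand, held an intronic peak of signal 250 (rank 548) 21419 bp downstream of its TSS, ranked 317 and 988 in the replicates. The closest protein-coding TSS to that summit was that of mad2, 11152 bp away, and mad2 was also nearest to a weaker vn peak (88.0).

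Among the Rhomboid proteases, ru had an intronic peak of signal 105 and stet one of 89.3, which ranked 8729 in replicate 1 and 2435 in replicate 3. The founding member rho had none, and its best entry in the pooled list ranked 7453. The oocyte ligand grk had none either, with a best pooled rank of 15840. The ligand group thus spanned S and spi among the 500 strongest peaks and rho and grk below the threshold.

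At the receptor and its inhibitors 3 of 4 genes had a summit (75.0%). All 4 had windows over 9.00 kb, a class in which 47.4% of all genes had one. Egfr itself, on 2R, held 2 intronic peaks, 5045 and 2946 bp downstream of a start. Their signals were 118 (rank 2279) and 98.8 (rank 2988). The stronger ranked 4128 in replicate 1 and 1809 in replicate 3, so the replicates placed it differently. aos encodes Argos, the secreted protein that sequesters Spitz, and is a widely used readout of EGFR activity. It had a pair of strong peaks on 3L. The intronic peak (16480429 to 16480689, signal 484, rank 109) lay 3095 bp downstream of the TSS and had signals of 225 and 256 in replicates 1 and 3, at ranks 90 and 132. The promoter peak (16483925 to 16484135, signal 403, rank 178) lay 351 bp upstream, with signals of 187 and 214 at ranks 152 and 214. Both were thus among the strongest in either replicate. Cbl, a ubiquitin ligase that downregulates the receptor, had a peak of signal 100 located 1735 bp upstream and nearer to CG32354. kek1, a transmembrane inhibitor, had none, with a best pooled rank of 5897.

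In the cascade from adaptors to kinases 6 of 10 genes had a summit (60.0%, against 31.2% of all genes). Of the 8 with windows over 9.00 kb, 5 had one (62.5%), against 47.4% of all genes in that class. Raf stood first. Raf, the kinase that Ras activates, lies on X (2295466 to 2343870) and held 11 peaks in 10 regions. The strongest (2297564 to 2297867, signal 626, rank 56) was intronic, 2269 bp downstream of the TSS. It had signals of 222 and 403 in replicates 1 and 3, at ranks 97 and 31. The next lay in the 5′ UTR, 820 bp downstream (signal 332, rank 292), and ranked 460 and 252. Of the 11, 9 lay between 1734 bp upstream of the 5′ end of the gene and 8.65 kb inside it. Those 9 had signals from 93.7 to 626. Those of signal 234, 193, 191, 190 and 168 ranked 511, 716, 919, 881 and 1159 in replicate 1. In replicate 3 the same 5 ranked 819, 1304, 982, 1082 and 573. The 2 further in were nearest to other genes. The first (138) ranked 2363 and 1591 and was nearest to CG2854, and the second (88.2) ranked 3505 and 3663 and was nearest to CG14050. The upstream peak (265) lay 321 bp upstream of the TSS of the neighbour CG2865 and ranked 527 and 482. Male embryos carry fewer copies of X than female ones, and whether the signal allows for this is not stated.

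**Figure D3:**
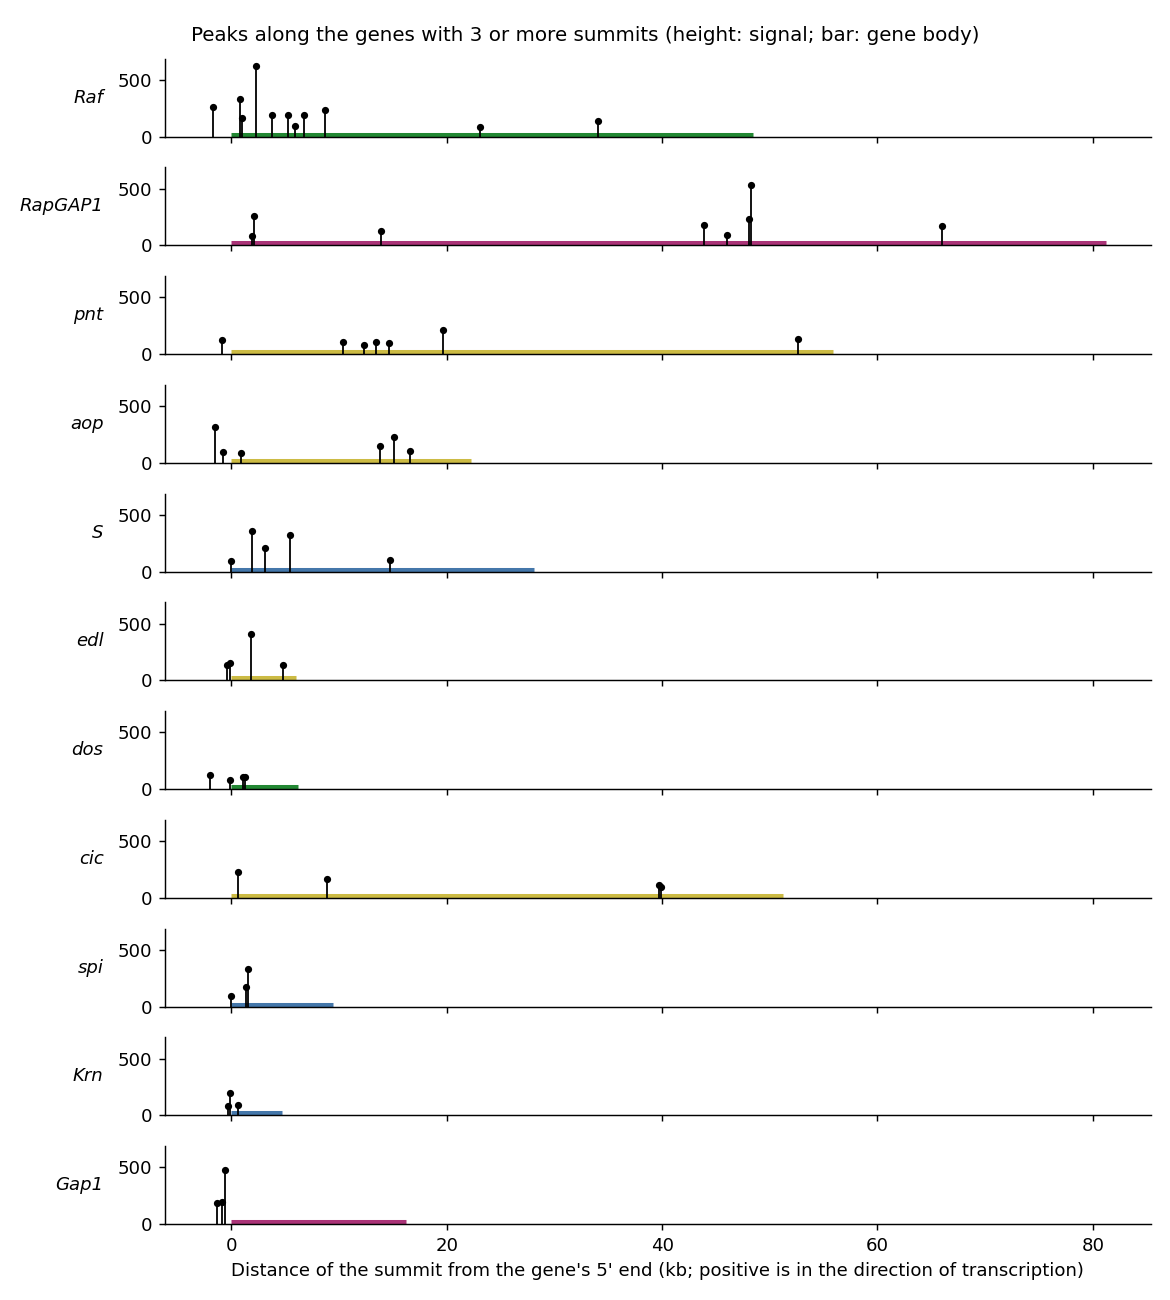
Each row is a gene with 3 or more summits; the coloured bar is the gene body from its 5′ end (0 kb), and each vertical line is a peak at its summit with its signal as height. Raf holds 9 of 11 peaks near its 5′ end, and the 3 peaks of Gap1 lie upstream of the gene. Peaks of RapGAP1 and pnt leave long stretches empty, from 13.93 to 43.86 kb in RapGAP1 and from 19.69 to 52.6 kb in pnt.

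The adaptor gene drk on 2R had an intronic peak of signal 242 (rank 588), ranked 496 and 747 in the replicates, whose closest TSS was that of mars at 862 bp. A weaker drk peak (114) was 185 bp upstream of a drk start. cnk encodes a scaffold protein of the cascade. The single peak in its window (2R, 17420942 to 17421111, signal 341, rank 274) ranked 238 and 316, but lay 1077 bp upstream of cnk and 293 bp from the TSS of l(2)k01209. The same held for ksr, another scaffold, whose peak (119) was 12 bp from the start of CG31550. dos encodes a Gab-type adaptor and had 4 peaks of signal 83.9 to 127. The strongest of these lay 41 bp from the TSS of RpL8, 2 others were in the 5′ UTR of dos, and the weakest was 113 bp upstream of its TSS. In replicate 1 the 4 ranked 1878, 2359, 2431 and 3892 from the strongest to the weakest. In replicate 3 they ranked 2233, 2352, 9528 and 3958. Ras85D, the Ras of this pathway, had a promoter peak 90 bp upstream (126, rank 2041), ranked 2295 and 1959.

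No summit fell in the windows of Sos, csw, Dsor1 or rl. These encode the Ras exchange factor, a tyrosine phosphatase, the MAP kinase kinase and the MAP kinase. Their best pooled ranks were 29822, 9787, 5551 and 11880. The gene rl lies in heterochromatin near the centromere of chromosome 2, and the nearest peak of the set was 3390579 bp away, a distance singled out after values had been seen. The steps from Sos to rl therefore held both the most peak-rich gene of the list, Raf, and genes without any peak.

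Of the 3 genes grouped here as brakes within the cascade, 2 had a summit (66.7%), and both held strong peaks. All 3 had windows over 9.00 kb, a class in which 47.4% of all genes had a summit. RapGAP1 encodes an activator of GTP hydrolysis by Rap1. It has 5 starts over 81.2 kb of 2L and held 8 peaks. The strongest (7530554 to 7530843, signal 535, rank 83) lay 145 bp upstream of an internal start, with signals of 249 and 284 in replicates 1 and 3 at ranks 72 and 104. A peak at another start (255, rank 534) ranked 492 and 586. Of the 8, 4 were within 500 bp of a RapGAP1 TSS. Those of signal 234 and 86.2 each overlapped a stronger one, and ranked 1001 and 1717 in replicate 1 and 601 and 586 in replicate 3. The entry at rank 586 was shared by the peaks of signal 255 and 86.2. An intronic peak of signal 175, ranked 1441 and 953, lay 17573 bp from the nearest RapGAP1 start and closer to Obp28a. The other intronic peaks had signals of 181, 131 and 88.5, with ranks of 1788, 2133 and 6216 in replicate 1 and 921, 1816 and 2544 in replicate 3. Gap1 encodes a GTPase activating protein for Ras. Its 3 peaks lay 634, 838 and 1354 bp upstream of the TSS on 3L, the strongest at 9855797 to 9856029 (signal 480, rank 112). That peak had signals of 196 and 294 at ranks 128 and 95. The other signals were 200 and 187, ranked 536 and 980 in replicate 3. In replicate 1 the first 2 peaks shared a single entry, and the third ranked 815. sty, which encodes Sprouty, had no summit. Its best pooled entry ranked 6194 and the nearest peak of the set was 4873 bp from the gene.

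All 5 nuclear factors had summits, 23 peaks in all, and the strongest peak of each had a signal of 217 or more. All 5 had windows over 9.00 kb, a class in which 47.4% of all genes had a summit. gro encodes the corepressor Groucho. It had promoter peaks at different starts on 3R, and the stronger (26042370 to 26042623, signal 418, rank 154) lay 154 bp upstream of a start. Its signals were 186 and 226 in replicates 1 and 3, at ranks 153 and 178. The other (131), 115 bp upstream of the most distal start, ranked 1712 and 1914. edl encodes a small protein that binds the ETS factors and blocks their activity. Its strongest peak (2R, 18671613 to 18671856, signal 410, rank 167) lay 1801 bp downstream of the TSS, with signals of 160 and 245 at ranks 233 and 148. Of 3 weaker edl peaks (135 to 151), 2 overlapping ones were at its promoter and 1 was nearer to CG33136. The promoter pair shared an entry in replicate 1 (rank 1244) and ranked 1431 and 3655 in replicate 3, and the third ranked 1346 and 2430. For gro and edl, both replicates placed the strongest peak among the first 250.

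aop encodes the ETS repressor Yan and held 6 peaks on 2L, none within 500 bp of a start. The strongest (2180129 to 2180332, signal 313, rank 331) lay 1475 bp upstream and ranked 335 and 351. The second (230) was intronic, 2152 bp upstream of the internal start, and stood lower in replicate 1 (rank 1452) than in replicate 3 (rank 397). The other 4 had signals of 146, 108, 93.9 and 90.2. They ranked 1092, 3166, 4041 and 7852 in replicate 1 and 2065, 2653, 3143 and 3660 in replicate 3. pnt encodes the ETS activator Pointed and held 7 separate peaks along a gene of 55.9 kb on 3R, again none within 500 bp of a start. The strongest (23326427 to 23326550, signal 217, rank 738) lay 12160 bp upstream of an internal start and ranked 1264 and 566. The other 6 had signals of 83.7 to 137, and 4 of them formed a row 10.4 to 14.6 kb into the gene. From the strongest to the weakest, the 6 ranked 1685, 1858, 1678, 2444, 4426 and 7658 in replicate 1. In replicate 3 they ranked 2381, 2020, 4029, 2697, 2473 and 2859. cic encodes Capicua, the repressor that the pathway relieves. It had 4 peaks, the strongest in the 5′ UTR 587 bp from a start (226, rank 676) at ranks 726 and 654. An intronic peak (163) ranked 1438 and 1281. An overlapping pair at an internal start (114 and 95.7) shared an entry in replicate 1 (rank 3828) and ranked 1451 and 2780 in replicate 3. The opposing ETS genes thus both carried several peaks away from their starts.

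Of the 9 other receptors and ligands, 3 had a summit (33.3%), a share near the 31.2% of all genes. For the 7 of them with windows over 9.00 kb it was 3 (42.9%), against 47.4% of all genes in that class. Each of the 3 genes had 1 weak intronic peak. jeb, the ligand of Alk, had a signal of 107 (rank 2662), ranked 2889 and 2469. Pvr, the PDGF and VEGF receptor homologue, had 81.9 (rank 3915), and bnl, the FGF of the trachea, had 81.3 (rank 3958). These last lay just inside the end of the set at rank 3974. In replicate 1 the entries matched to them ranked 4597 and 4486, and in replicate 3 4217 and 3802. Of the genes without a summit, Dsor1 came closest to the set, with a pooled signal of 64.1 at rank 5551. No summit fell at btl, the FGF receptor bound by bnl, or at tor, sev, boss, Alk and Ret. The pooled list had its best entry at rank 6797 for sev, 7510 for boss, 8939 for Ret and 14019 for btl. For Alk and tor these ranks were 27702 and 29183. The nearest peak of the set was 3960 bp from btl, 3698 bp from Dsor1 and 6516 bp from csw. None of these 9 had any of the 500 strongest peaks in its window, a feature of 5.79% of all genes and of 10.2% of those with windows over 9.00 kb. Among the 5 nuclear factors 3 had such a peak, and among the 3 genes grouped as brakes 2, RapGAP1 (which acts on Rap1) and Gap1. These groups are very small, and the contrast was not tested.

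**Figure D4:**
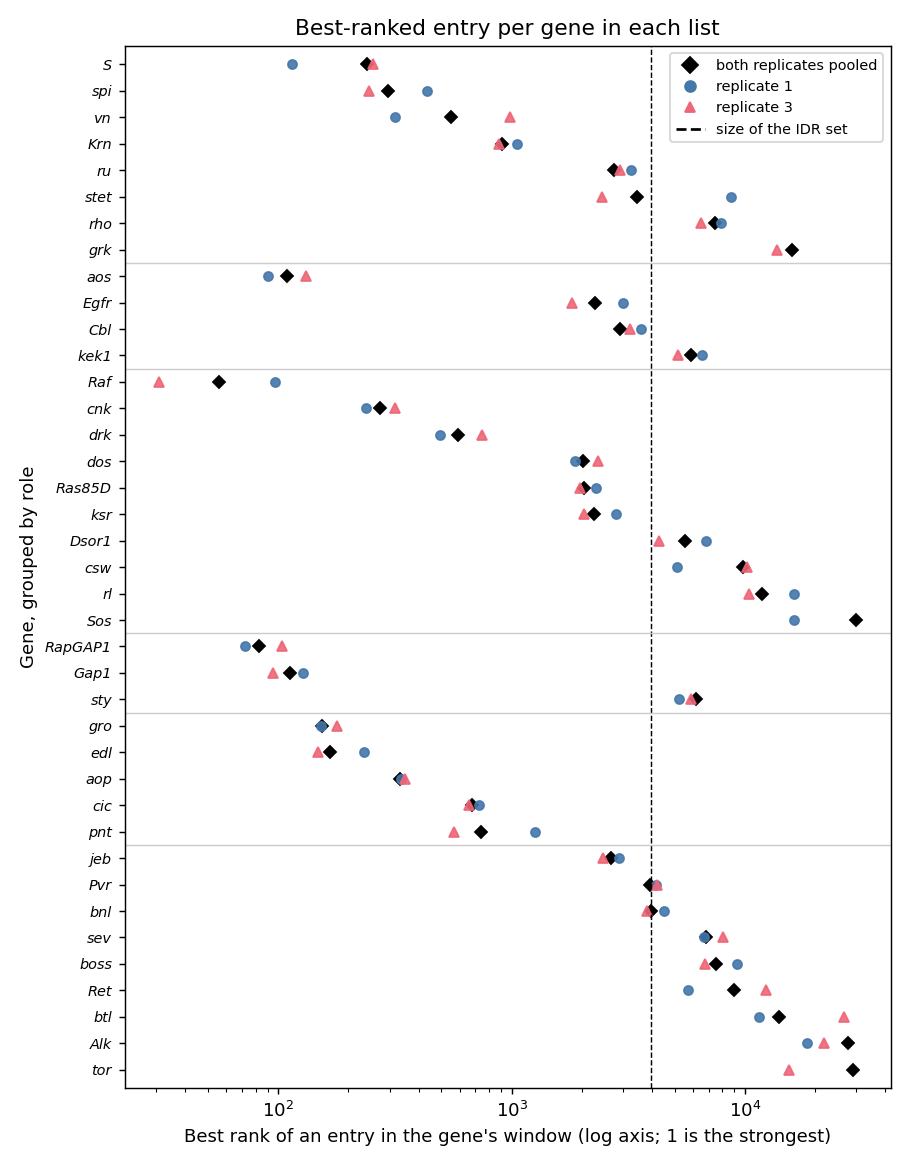
For each gene, symbols give the best rank of any entry in its window in the pooled list, in replicate 1 and in replicate 3, on a log x axis; the dashed line is at 3974, the size of the IDR set. The 10 genes with a pooled rank under 500 lie far left of the line in both replicates, with 436 for spi in replicate 1 the lowest place among them, and the replicate entries of stet and of bnl fall on either side of it.

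Each peak was looked for in both replicates. Of the 77 peaks, 63 (81.8%) overlapped an entry among the 3974 strongest of both replicates, against 78.2% of all peaks. Among the 3974 strongest of replicate 1 alone 65 had a match (84.4%, against 86.7% of all peaks). For replicate 3 alone the number was 74 (96.1%, against 90.8%), and all 77 had an entry somewhere in both lists. Any overlapping entry counted for these matches, not only the one with the nearest summit. The Krn peak of signal 82.8 and the dos peak of 105 therefore counted in replicate 3. Their ranks there by the nearest summit were 5683 and 9528. Spearman's rho of the ranks in replicates 1 and 3 was 0.806 over the 77 peaks and 0.694 over 3970 of all peaks, a description across peaks that share libraries. The median distance between replicate summits was 22 bp. Of the 77 peaks, 18 (23.4%) overlapped another peak of the set, against 10.4% of all peaks. In replicate 1, 3 entries were each matched by a pair of listed peaks, and in replicate 3, 1 was, so some neighbouring peaks are not independent. 

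Most peaks had the listed gene as the closest. For 64 of the 77 the nearest protein-coding TSS belonged to the listed gene, and for 13 to a neighbour. With each peak given to the gene of its nearest TSS, 22 of the 39 genes had a peak (56.4%), against 19.4% of all genes. This removed vn, cnk, ksr and Cbl and added sty. Shares by the nearest TSS were not split by window length either.

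A second list of 47 genes of these pathways was counted in the same way. It holds further fly receptor tyrosine kinases, some of their ligands and other adaptors and regulators, and is not a full list of these genes. A summit was found for 30 of them (63.8%, against 31.2% of all genes), 13 had one within 500 bp of an own TSS (27.7%, against 17.3%), and 9 had 3 or more (19.1%, against 2.96%). A peak among the 500 strongest lay in 4 windows (8.51%, against 5.79% of all genes). Of the 34 genes with windows over 9.00 kb, 23 had a summit (67.6%), against 47.4% of all genes in that class. In the same class 9 had 3 or more summits (26.5%, against 9.55%). There 3 had a peak among the 500 strongest (8.82%), below the 10.2% of all genes in the class. The strongest peak of the second list was at the promoter of the adaptor gene Shc (signal 618, rank 60, 118 bp upstream), ranked 77 and 48. It was followed by the insulin receptor gene InR (369, intron), Nf1 (295, 13610 bp from an Nf1 start and nearest to CG43116), the kinase gene Src64B (273, promoter) and the ligand gene Pvf3 (241, intron). The shares of the lists with a summit, 64.1% and 63.8%, lay close together, while those with a peak among the 500 strongest were 25.6% and 8.51%. The difference was not tested.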

How the data were processed

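Binding was measured by ChIP-seq in 2 samples of 1 group. According to the deposited listing of files, peaks and background were listed for either replicate and for the alignments of both together, and these 3 lists gave the optimal IDR set. The values used are the authors' signal per peak, as deposited. How it is scaled, the aligner, the peak caller and the IDR cutoff are not given. The listing names 1 further input to those lists without saying what it holds. The IDR set was identical to the 3974 strongest pooled entries.

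The files are on dm6. Gene models are Ensembl release 115 (BDGP6, the same assembly), and sequence is from RefSeq Release 6. Positions count from 1. Summits, ranks by signal, window counts and word searches were computed in Python 3.11.15 with pandas 2.3.3 and numpy 2.4.6. Counting and matching were checked on planted peaks. Replicates were matched by an overlap of at least 1 bp.

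The genes, the second list, the roles and the words were chosen with earlier results of these data known, and no set test was run. All 39 genes are named, and the 10 with the strongest peaks and those with 3 or more peaks are described peak by peak. Genes without a summit get the distance of the nearest peak where it is under 10 kb, and the second list is named for its 5 strongest. A window can hold the TSS of a neighbour, which is stated. Lists on build dm3 were not used here. Alternatives were other peak sets, windows, promoter distances, overlaps and word windows.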

Additional observations from a re-analysis of the deposited data

How the results depend on the processing

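Counts over all 39 genes moved by over 1.5 times under 3 kinds of alternative. With the 1987 strongest peaks of the set, 15 genes had a summit, 6 had one at a promoter, 42 peaks remained in the windows and 5 held TGATAC. With promoters of 1000 bp, 17 genes had a promoter summit. With word windows of 50 bp, TGATAC was at 5 summits, and with 250 bp at 13. The cause was not tested, though fewer peaks and narrower windows leave fewer hits by construction. When replicate 1 or replicate 3 was left out, taking the 3974 strongest peaks of the other, 22 to 24 genes had a summit, 11 to 13 had one at a promoter and the windows held 74 to 75 peaks. Leaving out replicate 1 lost Pvr, and leaving out replicate 3 lost stet, bnl and Pvr. Among the 6000 strongest pooled entries the count was 27, with kek1 and Dsor1 gained. Gene bodies alone gave 20 genes, an extension of 1 kb 22 and one of 5 kb 28. Apart from the nearest TSS, the shares of all genes under these alternatives are not given here. These counts therefore do not show whether the contrast with all genes held. Peak counts of single genes moved more often, in 54 of 200 cases over the 25 genes and 8 alternatives. Of these, 17 were with the 1987 strongest peaks, 10 with gene bodies alone, 7 with the 6000 pooled entries, 6 with the nearest TSS, 5 and 3 without replicate 3 or 1, and 3 with either extension. Gene bodies alone left no peak at Gap1, cnk, Ras85D, ksr and Cbl, and the nearest TSS left none at vn, cnk, ksr and Cbl. In the set used here and in all 8 alternatives of peak set or window, 12 genes had a peak: spi, Krn, aos, pnt, aop, Raf, drk, RapGAP1, edl, cic, gro and S. No paired analysis was possible because both samples belong to 1 group. Groups of 2 samples are too small to look for outlying samples. Depth is unknown, so a gene without a summit may still be bound below the threshold.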
